A study of Mus musculus with 9 samples.

Results

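The 10 genes described here are mouse genes of cyclic AMP (cAMP) signaling, found by their symbol among the 54532 genes of the deposited count and FPKM tables: the nuclear receptors Nr4a1, Nr4a2 and Nr4a3, the transcription factor Crem, the kinase Sik1, and the phosphodiesterases Pde3b, Pde4a, Pde4b, Pde4d and Pde7a. They were chosen by name, with earlier results of these data known. All 10 had counts and were tested in every comparison. They were measured in 3T3-L1 cells, a mouse fibroblast line of preadipocytes that turns into fat cells under hormones. The Undifferentiated group was held confluent for 3 days in high glucose DMEM with calf serum (BCS) and got none of the inducing agents. The Differentiated group went from the same state into a medium with insulin at 10 μg/mL, rosiglitazone and dexamethasone at 1 μM each and the methylxanthine IBMX at 0.5 mM, and the Lysfree group into that medium with no lysine added, both for 3 days. Every group had n = 3 libraries of poly A RNA. The labels do not say that the libraries of a group are separate cultures, so the p values rest only on these libraries, whose spread may be technical. The size of a small p value also depends strongly on the fit, as given in the last section.

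cAMP is made by adenylyl cyclases after Gs-coupled receptors are engaged, and it switches on protein kinase A, which phosphorylates the transcription factor CREB. The NR4A receptors, Crem and Sik1 are textbook target genes of CREB, and the short Crem product ICER and the kinase SIK1 in turn restrain CREB-driven transcription. Phosphodiesterases break cAMP down. IBMX inhibits most of their families, which is why it is part of the adipogenic cocktail, and PDE3B is known as the enzyme through which insulin lowers cAMP in fat cells. Both treated groups received IBMX together with the other 3 agents, and their base medium and serum (FBS) also differed from those of the Undifferentiated cells. The labels do not say when the Undifferentiated cells were harvested, so the time in culture may differ too. The share of IBMX in any change from Undifferentiated therefore cannot be told apart from that of the other components or of time in culture. By contrast, Lysfree vs Differentiated compares groups that both had IBMX.

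Promoter windows of some of these genes were searched for letters that CREB is known to bind. RefSeq windows (GRCm38.p6, 250 bases before to 50 after a start site) were given for 6 of the 10 genes, 11 windows in all, and not for Crem, Sik1, Pde3b and Pde7a. The motif searched was the short cAMP response element TGACG, on either strand, so that it reads CGTCA where it lies on the opposite strand. The windows of Nr4a1, Nr4a2 and Nr4a3 each held 4 short elements, a number reached by 0.231% of the 32851 windows in the table, while 20.8% held at least 1. One window of Pde4a and another of Pde4b held 1 each, and the single window of Pde4d held 0. The windows need not cover every start site of a gene, and which starts these cells use was not measured. The full element TGACGTCA, which contains the short one on both strands, was in 1.79% of all windows and in 0 of the 11, and the AP-1 element TGANTCA was in 7.81% and 0. The stretches printed next, 5′ to 3′ on the gene's strand with the short elements in capitals, lie outside annotated exons. They cover chr15:101266596-101266830 on the plus strand for Nr4a1, within an intron of the longer transcripts, chr2:57124090-57124223 on the minus strand for Nr4a2, upstream of the gene, chr4:48045055-48045124 on the plus strand for Nr4a3, upstream of the gene, and chr9:21184031-21184075 on the plus strand for Pde4a, in an intron. For Nr4a3, 3 of the 4 elements are shown, since the other lies in an annotated exon.
Nr4a1: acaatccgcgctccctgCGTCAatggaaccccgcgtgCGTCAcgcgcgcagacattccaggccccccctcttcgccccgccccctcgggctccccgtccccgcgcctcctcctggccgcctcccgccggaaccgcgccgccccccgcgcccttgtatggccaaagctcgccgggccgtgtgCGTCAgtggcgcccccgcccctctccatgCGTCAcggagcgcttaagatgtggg
Nr4a2: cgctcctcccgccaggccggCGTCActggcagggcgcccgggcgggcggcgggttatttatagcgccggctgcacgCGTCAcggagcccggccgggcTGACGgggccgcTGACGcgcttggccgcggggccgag
Nr4a3: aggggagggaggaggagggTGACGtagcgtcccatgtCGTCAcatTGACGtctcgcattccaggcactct
Pde4a: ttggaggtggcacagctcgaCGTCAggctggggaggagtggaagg

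**Figure D1:**
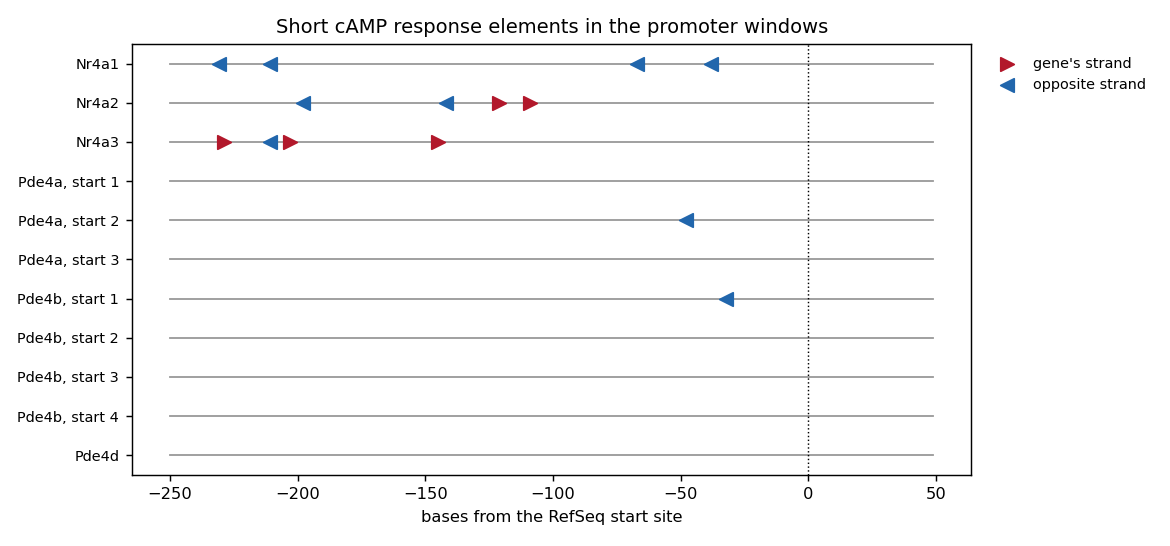
Positions of the short cAMP response element in the 11 promoter windows of 6 of the 10 genes, in bases from the RefSeq start site (dotted line), with red triangles for the gene's strand and blue ones for the opposite strand. The NR4A windows hold 4 elements each, all upstream of the start site, and the remaining 8 windows hold 2 in all.

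Total counts were 15880144 to 21806693 per library. Lysfree 1 stood apart: 454 of 13678 genes lay more than 2-fold from the mean of the other 2 Lysfree libraries, against 21 to 69 genes for each of the other 8 libraries. Lysfree changes of the 10 genes are therefore also given without it, as are those of other named genes where its absence changed a call. Preadipocyte markers (8 genes) summed to 3690 to 3950 FPKM in Undifferentiated, 856 to 861 in Differentiated and 1410 to 1440 in Lysfree libraries. Adipocyte markers (8 genes) summed to 191 to 300, 6050 to 6340 and 61.2 to 68.2 FPKM in the same order. In Lysfree, Lep was at 0 and Slc2a4 at or under 3 counts. Col1a1 and Col3a1 made up most of the preadipocyte sum, at 1890 and 1370 FPKM in Undifferentiated. The preadipocyte markers did not all move together. In Lysfree vs Undifferentiated, 5 of the 8 were lower as DEGs and 1 was higher, Ly6a, at 390 beside 94.1 FPKM. Markers of other cell types were low beside the sums above, but not all were absent. Macrophage and leukocyte markers summed to at most 10.7 FPKM with Ptprc, Adgre1 and Itgam at or under 3 counts per library, and endothelial, epithelial and muscle markers to at most 0.272, 1.72 and 4.27 FPKM. Cd68 was at 1.65, 4.12 and 4.4 FPKM and Cd14 at 5.54, 4.93 and 5.19 in Undifferentiated, Differentiated and Lysfree, levels like those of several of the 10 genes. Krt8 and Krt18 were highest in Differentiated, at 0.468 and 0.947 FPKM. In these bulk samples, fewer cells of a type and less RNA per cell cannot be told apart.

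In Differentiated vs Undifferentiated cells, the 10 genes did not move as a block. A gene is said to have risen or fallen where edgeR's adjusted p was under 0.05, and is called a DEG where it also changed at least 2-fold. Of the 10 genes, 4 rose (Nr4a1, Crem, Pde3b and Pde4d), 2 fell (Pde4a and Pde7a) and 4 did not pass. Among all 24402 genes tested, 23% rose and 23.2% fell. Pde3b was the 1 DEG, with 1 higher and 0 lower among the 10 against 10.4% higher and 11.4% lower among all genes. The FPKM of the groups did not overlap for 8 of the 10, beside 50.9% of all genes. The median log2 fold change was 0.42 for the 10 genes and 0.02 for all genes tested.

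In Lysfree vs Undifferentiated cells the balance was different, with 7 genes that rose (Nr4a1, Nr4a3, Crem, Sik1, Pde3b, Pde4b and Pde4d), 1 that fell (Pde4a) and 2 that did not pass. Among all 23994 genes tested, 18% rose and 17.1% fell. All of these rises except that of Sik1 were DEGs, so that 6 of the 10 were higher and 0 lower as DEGs, beside 5.52% higher and 8.76% lower among all genes. The groups did not overlap for 8 of the 10, beside 43.5% of all genes. The median was 1.29 for the 10 genes and −0.02 for all. The count of 6 DEGs was the same without Lysfree 1, with log2 fold changes of 1.61 ± 0.09 for Nr4a1, 1.11 ± 0.21 for Crem, 1.20 ± 0.15 for Pde3b and 1.28 ± 0.10 for Pde4d.

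In Lysfree vs Differentiated cells, both with IBMX, 6 genes rose (Nr4a1, Nr4a3, Sik1, Pde4b, Pde4d and Pde7a), Pde3b fell and 3 did not pass, beside 19.7% and 18.8% of all 24130 genes. Nr4a3 and Pde4b were DEGs with higher and Pde3b with lower expression in Lysfree, where all genes had 8.14% and 10.5%. The groups did not overlap for 7 of the 10 genes, beside 46.6% of all genes. Medians were 0.49 for the 10 genes and −0.06 for all. Each pair of these 3 comparisons shares a group of libraries, so their counts are not independent of each other. Expressed genes are called more often than the rest. Of the 10 genes, 9 averaged 1 CPM or more (counts scaled to a common library size), as did 12708 genes in all. Of these 12708, 34.5% rose and 30% fell in Lysfree vs Differentiated. The shares were 31.8% and 27.9% in Lysfree vs Undifferentiated, and 38.4% and 39% in Differentiated vs Undifferentiated. As DEGs, 12.6% were higher and 14.4% lower in Lysfree vs Differentiated, beside 1 and 1 of the 9 genes. In Lysfree vs Undifferentiated these shares were 8.31% and 12.1%, beside 5 and 0 of the 9. In Differentiated vs Undifferentiated they were 14.4% and 16.5%, beside 1 and 0. They are also the closer comparison for lists below whose genes mostly reach 1 CPM.

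**Figure D2:**
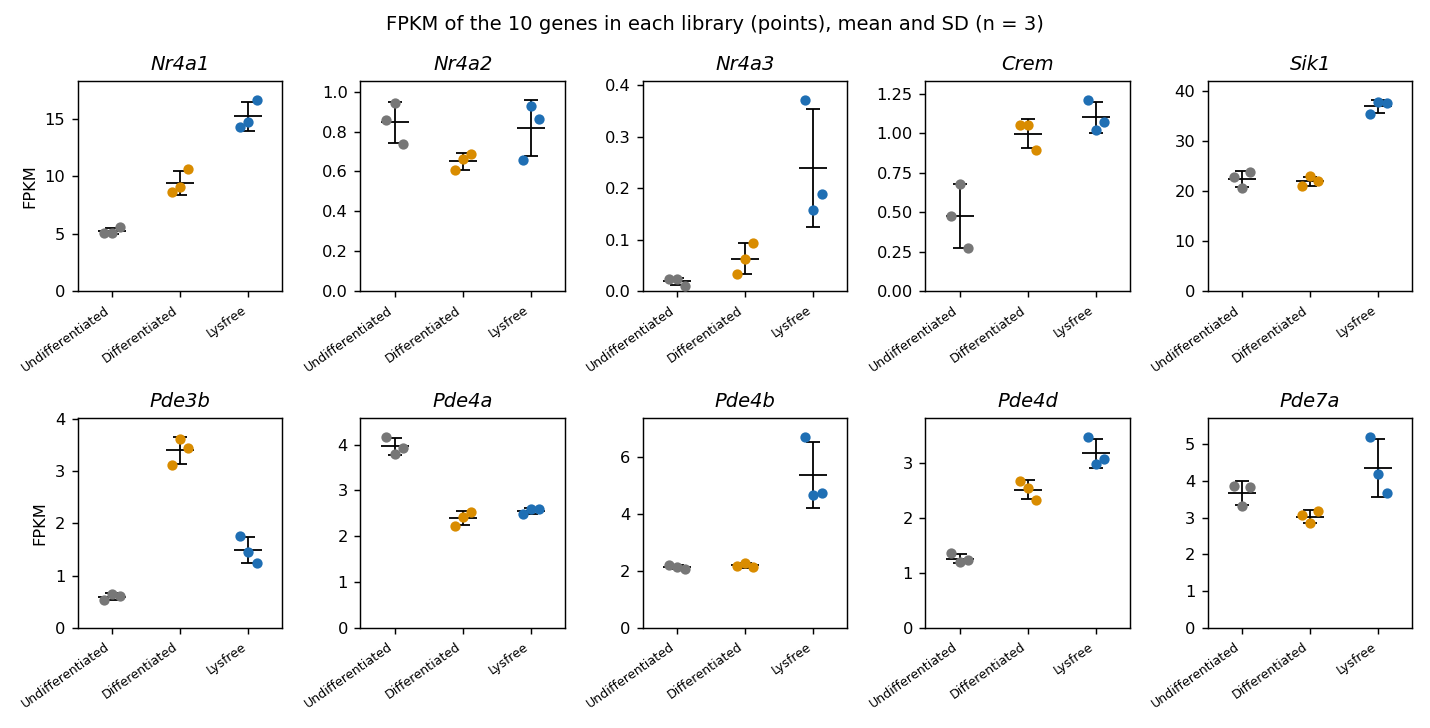
FPKM (y axis, linear, from 0) of each of the 10 genes in the 9 libraries, with a point per library and the mean and SD of each group of n = 3. Nr4a1 is lowest in Undifferentiated and highest in Lysfree, Pde3b is highest in Differentiated, and Sik1 and Pde4b are higher in Lysfree than in both other groups, and Lysfree 1 is the highest point for Pde4b.

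Nr4a1 and its relatives are orphan nuclear receptors and early target genes of cAMP. Nr4a1 (ENSMUSG00000023034, chromosome 15, 101254269 to 101274795 on mm10) was at 5.06, 5.09 and 5.55 FPKM in Undifferentiated libraries 1 to 3, at 8.58, 9.06 and 10.6 in Differentiated and at 14.3, 14.7 and 16.6 in Lysfree. The 3 groups formed separate steps without overlap. Its log2 fold change was 0.82 ± 0.09 (SE) in Differentiated vs Undifferentiated (edgeR adjusted p = 7.7e-19) and 1.59 ± 0.12 in Lysfree vs Undifferentiated (adjusted p = 1.3e-12). Lysfree libraries were above Differentiated ones by 0.76 ± 0.11 (adjusted p = 1.2e-05), and by 0.78 ± 0.07 without Lysfree 1.

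Nr4a2 (ENSMUSG00000026826, chromosome 2, 57106830 to 57124003), with the same number of short elements in its window, showed no such steps. It was at 0.856, 0.943 and 0.738 FPKM in Undifferentiated, 0.605, 0.661 and 0.686 in Differentiated and 0.659, 0.93 and 0.863 in Lysfree libraries. The Lysfree libraries spanned parts of both other ranges. Its log2 fold changes were −0.41 ± 0.22 in Differentiated vs Undifferentiated (edgeR adjusted p = 0.13), 0.00 ± 0.24 in Lysfree vs Undifferentiated (0.99) and 0.39 ± 0.23 in Lysfree vs Differentiated (0.21). Without Lysfree 1 the last pair became 0.10 ± 0.22 (adjusted p = 0.76) and 0.51 ± 0.23 (adjusted p = 0.059).

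Nr4a3 (ENSMUSG00000028341, chromosome 4, 48045153 to 48086447) was near the limit of detection outside the Lysfree group. It had 3, 3 and 1 counts in Undifferentiated libraries, 3, 7 and 9 in Differentiated and 39, 18 and 22 in Lysfree, or 0.371, 0.158 and 0.189 FPKM in Lysfree. The highest of these libraries was Lysfree 1. With Undifferentiated at or under 3 counts per library, a fold change against it is a lower bound computed against 3 counts in each library. Nr4a3 was at least 9.72-fold higher in Lysfree than in Undifferentiated (edgeR adjusted p = 2.6e-06), and at least 7.13-fold without Lysfree 1. The bound for Differentiated was 2.33-fold, and that comparison did not pass (adjusted p = 0.12). Lysfree was above Differentiated by a log2 fold change of 1.96 ± 0.47 (adjusted p = 0.0017), and by 1.49 ± 0.49 without Lysfree 1 (adjusted p = 0.0065). The bound covers counting error only.

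**Figure D3:**
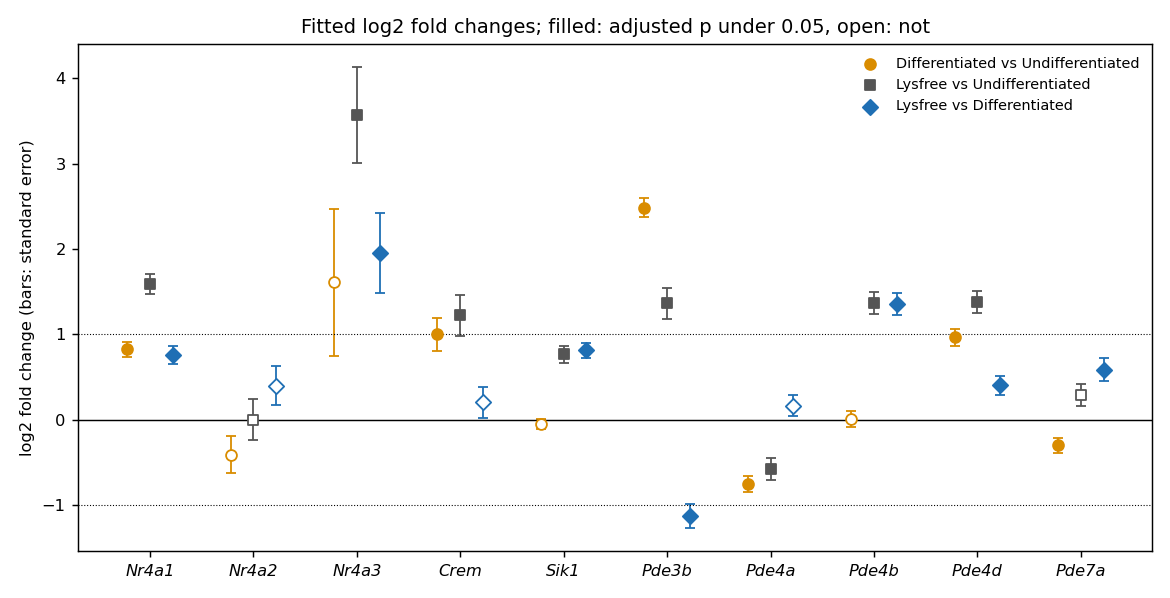
Fitted log2 fold changes of the 10 genes (y axis) in the 3 comparisons, with bars of 1 standard error, filled symbols for an adjusted p under 0.05 and open ones otherwise, and dotted lines at a 2-fold change. Pde3b is the 1 gene below the lower line, in Lysfree vs Differentiated, and for Nr4a3 the fitted change against Undifferentiated depends on counts of 1 to 3 and is given in the text as a bound.

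Crem encodes activating and repressing relatives of CREB, and the short repressor ICER starts from an internal promoter. Gene-level counts do not separate these products. Crem (ENSMUSG00000063889, chromosome 18, 3266048 to 3337748) was at 0.478, 0.681 and 0.275 FPKM in Undifferentiated, 1.05, 1.05 and 0.893 in Differentiated and 1.21, 1.02 and 1.07 in Lysfree libraries. Both treated groups lay above every Undifferentiated library, and they overlapped with each other. Crem had a log2 fold change of 1.00 ± 0.19 in Differentiated vs Undifferentiated (edgeR adjusted p = 9.8e-07), just under the 2-fold threshold, and 1.22 ± 0.24 in Lysfree vs Undifferentiated (adjusted p = 9.5e-05). Undifferentiated 3 was the lowest library. Without it the changes were 0.77 and 0.97, so that the gene was no DEG in either comparison, and without Undifferentiated 2 they were 1.35 and 1.57, so that it was a DEG in both. Lysfree and Differentiated differed by 0.20 ± 0.18 (adjusted p = 0.41), and by 0.11 ± 0.17 without Lysfree 1. The overlapping gene Gm6225 had counts equal to 4.33% of those of Crem.

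Sik1 is a salt-inducible kinase that keeps the CREB coactivators (CRTC proteins) out of the nucleus. It was the most abundant of the 10 genes by FPKM. Sik1 (ENSMUSG00000024042, chromosome 17, 31844248 to 31855792) was at 22.9, 20.6 and 23.8 FPKM in Undifferentiated, 21.1, 23 and 22 in Differentiated and 35.5, 37.8 and 37.6 in Lysfree libraries. The first pair of groups overlapped and the Lysfree libraries were all above them. Its log2 fold change in Differentiated vs Undifferentiated was −0.05 ± 0.06 (edgeR adjusted p = 0.52). Lysfree was higher by 0.81 ± 0.09 than Differentiated (adjusted p = 1.5e-07) and by 0.77 ± 0.10 than Undifferentiated (adjusted p = 1.1e-07). Without Lysfree 1 these were 0.82 ± 0.05 and 0.77 ± 0.06.

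The 5 phosphodiesterases did not share a pattern. Pde3b encodes the membrane-bound enzyme of insulin-treated fat cells. Pde3b (ENSMUSG00000030671, chromosome 7, 114415281 to 114539251) was at 0.53, 0.65 and 0.61 FPKM in Undifferentiated, 3.11, 3.62 and 3.45 in Differentiated and 1.76, 1.45 and 1.25 in Lysfree libraries. The 3 groups did not overlap, with Lysfree in between. The log2 fold change was 2.48 ± 0.11 in Differentiated vs Undifferentiated (edgeR adjusted p = 3e-105) and 1.36 ± 0.18 in Lysfree vs Undifferentiated (adjusted p = 1.1e-07). In Lysfree vs Differentiated it was −1.13 ± 0.14 (adjusted p = 6.5e-07), and −1.29 ± 0.10 without Lysfree 1. Of the 8 adipocyte markers, 7 were DEGs with higher expression in Differentiated vs Undifferentiated, and all 8 were lower in Lysfree vs Differentiated. In Lysfree vs Undifferentiated, where Pde3b was higher, 4 of the 8 markers were lower and 0 higher as DEGs. The part of the adipocyte share in the Pde3b result was not tested.

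Pde4a, Pde4b and Pde4d encode cAMP-specific enzymes with many isoforms from separate promoters, which gene-level counts do not tell apart. Pde4a (ENSMUSG00000032177, chromosome 9, 21165714 to 21213248) was the 1 phosphodiesterase of the 5 that fell in both treated groups. It was at 4.17, 3.79 and 3.92 FPKM in Undifferentiated, 2.22, 2.43 and 2.52 in Differentiated and 2.48, 2.6 and 2.59 in Lysfree libraries. The treated groups lay below every Undifferentiated library and overlapped with each other. Pde4a had a log2 fold change of −0.75 ± 0.09 in Differentiated (edgeR adjusted p = 1.6e-15) and −0.58 ± 0.13 in Lysfree (adjusted p = 0.00032) against Undifferentiated, and 0.16 ± 0.12 in Lysfree vs Differentiated (adjusted p = 0.35). Without Lysfree 1 the Lysfree values were −0.59 ± 0.10 and 0.16 ± 0.10.

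Pde4b (ENSMUSG00000028525, chromosome 4, 102087543 to 102607259) was higher in Lysfree alone. It was at 2.22, 2.13 and 2.07 FPKM in Undifferentiated, 2.17, 2.28 and 2.13 in Differentiated and 6.7, 4.65 and 4.74 in Lysfree libraries. Undifferentiated and Differentiated overlapped, with a log2 fold change of 0.01 ± 0.09 (edgeR adjusted p = 0.96), and every Lysfree library was above both. The log2 fold change was 1.35 ± 0.13 in Lysfree vs Differentiated (adjusted p = 2.7e-08) and 1.37 ± 0.13 in Lysfree vs Undifferentiated (adjusted p = 1.8e-10). Lysfree 1 was the highest library. Without it the changes were 1.14 ± 0.08 and 1.15 ± 0.09, still at least 2-fold.

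Pde4d (ENSMUSG00000021699, chromosome 13, 108449948 to 109953461) rose in steps, as Nr4a1 did. It was at 1.36, 1.2 and 1.23 FPKM in Undifferentiated, 2.68, 2.55 and 2.32 in Differentiated and 3.48, 2.98 and 3.08 in Lysfree libraries. No groups overlapped. On the log2 scale it rose by 0.96 ± 0.10 in Differentiated (edgeR adjusted p = 2.4e-23) and 1.38 ± 0.13 in Lysfree (adjusted p = 1.2e-10) against Undifferentiated. The step from Differentiated to Lysfree was 0.40 ± 0.11 (adjusted p = 0.0068), and 0.31 ± 0.08 without Lysfree 1. It did not pass without Differentiated 3 (0.34, adjusted p = 0.058) or with limma on log2(FPKM + 1) and log2(FPKM + 0.1) (adjusted p = 0.08 and 0.066). Rps3a3, which overlaps Pde4d on the same strand, had counts equal to 11.8% of those of Pde4d.

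Pde7a encodes another cAMP-specific enzyme, and its Differentiated libraries were the low group. Pde7a (ENSMUSG00000069094, chromosome 3, 19223108 to 19311322) was at 3.87, 3.31 and 3.84 FPKM in Undifferentiated, 3.06, 2.84 and 3.18 in Differentiated and 5.2, 4.19 and 3.66 in Lysfree libraries. Every Differentiated library was below all others, and Lysfree overlapped with Undifferentiated. The log2 fold change was −0.30 ± 0.09 in Differentiated vs Undifferentiated (edgeR adjusted p = 0.0019) and 0.29 ± 0.13 in Lysfree vs Undifferentiated (adjusted p = 0.091). The fall did not pass with limma on log2(FPKM + 1) and log2(FPKM + 0.1) (adjusted p = 0.067 and 0.054), and the Lysfree value was 0.12 ± 0.10 without Lysfree 1 and 0.40 without Lysfree 3 (adjusted p = 0.37 and 0.023). Lysfree was above Differentiated by 0.59 ± 0.13 (adjusted p = 9e-04), and by 0.42 ± 0.09 without Lysfree 1.

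The same values can be read as the make-up of the 5 phosphodiesterase transcripts in each library. Their summed FPKM was 11.1 to 12.2 in Undifferentiated, 13.2 to 13.7 in Differentiated and 15.3 to 19.6 in Lysfree libraries. Pde4a and Pde7a led in Undifferentiated, at 33.6% to 34.3% and 29.8% to 32.9% of the sum. Pde3b took 4.36% to 5.87% in Undifferentiated, 23.5% to 26.4% in Differentiated, where it was the largest share, and 8.16% to 9.13% in Lysfree. Pde4b was the largest share in Lysfree, at 29.3% to 34.1%, and took 17.7% to 19.2% in Undifferentiated and 15.7% to 16.6% in Differentiated. These are shares of transcript per length, not of enzyme activity.

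Ratios within a library are free of its scaling. Pde4b to Pde4a was 0.527 to 0.562 in Undifferentiated, 0.846 to 0.976 in Differentiated and 1.79 to 2.7 in Lysfree, so that the order of the 2 genes was reversed in Lysfree. Pde3b to Pde4b was 0.239 to 0.305 in Undifferentiated, 1.44 to 1.62 in Differentiated and 0.263 to 0.312 in Lysfree. The exact permutation test (two-sided, n = 3 against 3) cannot give a p below 0.1, and it gave 0.1 for both ratios and for the sum in every comparison, except for Pde3b to Pde4b in Lysfree vs Undifferentiated, where the ranges overlapped (exact p = 1).

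**Figure D4:**
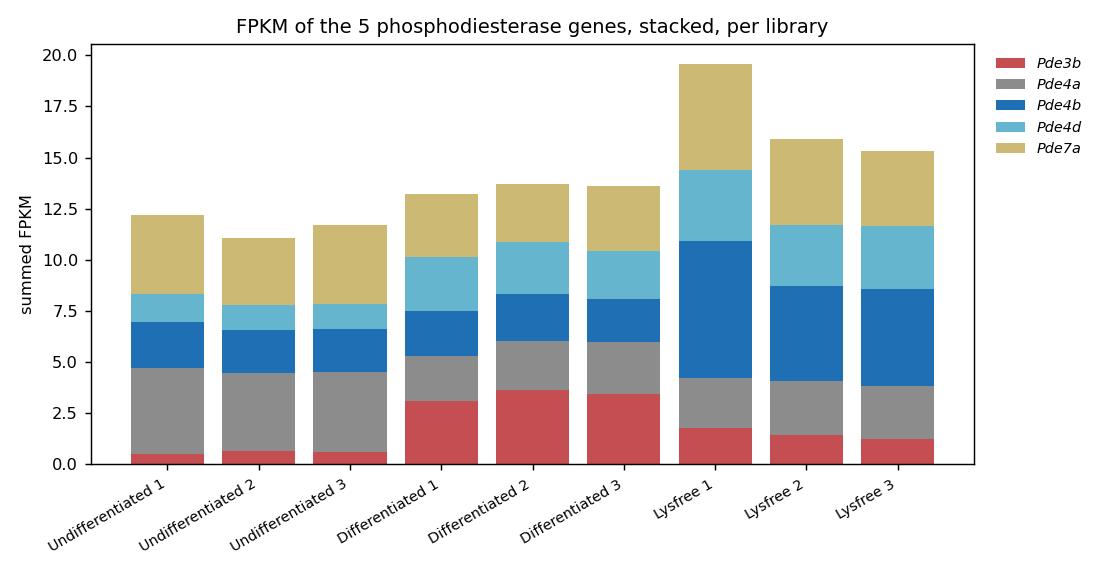
Stacked bars of the FPKM of the 5 phosphodiesterase genes in each of the 9 libraries (y axis, summed FPKM from 0). Pde3b (red) is widest in Differentiated and Pde4b (dark blue) in Lysfree, and Lysfree 1 has the highest sum, 19.6.

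Of the other 20 phosphodiesterase genes, 5 reached a mean of 1 CPM over the 9 libraries. Pde1a, a calcium-dependent enzyme, was at 5.61 ± 0.0647 FPKM (SD, n = 3) in Undifferentiated, 7.07 ± 0.131 in Differentiated and 7.37 ± 2.1 in Lysfree, where Lysfree 1 was at 9.79 and the others at 6.04 and 6.27. It rose in Differentiated vs Undifferentiated by 0.31 ± 0.08 (edgeR adjusted p = 0.00032). In Lysfree vs Undifferentiated the change was 0.44 ± 0.14 (adjusted p = 0.012), and without Lysfree 1 it was 0.16 ± 0.09 and did not pass (adjusted p = 0.18). Pde1b, of the same family, was at 0.765 ± 0.0722, 1.15 ± 0.201 and 0.149 ± 0.0311 FPKM in Undifferentiated, Differentiated and Lysfree, and was the 1 other phosphodiesterase of these 5 that was lower in Lysfree as a DEG. It fell by 2.88 on the log2 scale (SE 0.26, adjusted p = 1e-08) against Differentiated, opposite to Pde4b. Pde10a, which acts on cAMP and cGMP, was at 0.231 ± 0.028, 0.392 ± 0.0547 and 1.02 ± 0.0547 FPKM, and rose by 1.45 ± 0.16 in Lysfree vs Differentiated (adjusted p = 2.3e-07). Pde6d, a carrier of prenylated proteins rather than an enzyme, was at 20 ± 2.44, 12.2 ± 0.133 and 21.7 ± 1.89 FPKM. Pde12, which degrades oligoadenylates in mitochondria, was at 1.92 ± 0.121, 3.96 ± 0.108 and 4.61 ± 0.35 FPKM. The whole list of 20 had 2 DEGs higher and 1 lower of 17 tested in Lysfree vs Differentiated, where all genes had 8.14% and 10.5%. It had 1 and 1 of 17 in Differentiated vs Undifferentiated (all genes 10.4% and 11.4%), and 2 and 2 of 14 in Lysfree vs Undifferentiated (5.52% and 8.76%). Its medians were 0.12, 0.54 and −0.07. They depend on genes with few counts, since the 5 genes at 1 CPM or more had medians of 0.28, 0.55 and 0.44. Without Lysfree 1 the lower DEGs of the whole list numbered 2 in Lysfree vs Differentiated and 1 in Lysfree vs Undifferentiated. Its median in Lysfree vs Differentiated was then −0.29.

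Other known cAMP and CREB target genes (38 genes, Pde10a among them) moved in both directions in each comparison. In Differentiated vs Undifferentiated, 15 of 35 tested were higher and 4 lower as DEGs, beside 10.4% and 11.4% of all genes, with a median of 0.74. Atf3, a stress-inducible factor, went from 0.925 ± 0.317 to 24.0 ± 0.361 FPKM (log2 fold change 4.71 ± 0.12, edgeR adjusted p = 6.1e-319), and Pcx, pyruvate carboxylase, from 32.4 ± 2.92 to 558 ± 8.39 FPKM. Egr3 and Klf4, both zinc finger factors, fell, with log2 fold changes of −3.06 ± 0.24 and −1.82 ± 0.08. In Lysfree vs Undifferentiated, 15 of 34 were higher and 7 lower, beside 5.52% and 8.76% of all genes. The median was 0.59. Without Lysfree 1 the numbers were 14 and 6, with a median of 0.83. In Lysfree, Atf3 was at 29.2 ± 1.21 FPKM, and Dusp4, a MAP kinase phosphatase, at 20.1 ± 1.38 beside 2.45 ± 0.226 in Undifferentiated. The largest falls were those of Egr3, at 0.0566 ± 0.013 beside 1.53 ± 0.133 FPKM, and Pck1.

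In Lysfree vs Differentiated, 6 of 35 of these target genes were higher and 12 lower as DEGs, beside 8.14% and 10.5% of all genes, with a median of 0.01. Klf4 had the largest rise, from 6.83 ± 0.126 to 69.3 ± 17.2 FPKM (3.41 ± 0.15, edgeR adjusted p = 9e-14), with Lysfree 1 at 49.6 and the others at 80.8 and 77.5. Bdnf, a secreted neurotrophin, rose from 0.882 ± 0.0432 to 5.78 ± 0.642 FPKM (2.77 ± 0.14). Pck1, which encodes a cytosolic enzyme of glyceroneogenesis, had a log2 fold change of −7.76 ± 0.27 and Pcx of −4.91 ± 0.09, and both are also abundant in adipocytes. Pck1 had 408, 461 and 422 counts in Differentiated and 1, 1 and 4 in Lysfree libraries, so the size of its fall rests on few reads. The adipocyte markers fell in the same comparison, and their part in these falls was not tested.

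Upstream of cAMP, 15 of the 17 genes for adenylyl cyclases and G proteins were tested. In Differentiated vs Undifferentiated 2 were higher and 3 lower as DEGs (median −0.40), beside 10.4% and 11.4% of all genes. Lysfree vs Undifferentiated had 1 and 2 (median −0.30), beside 5.52% and 8.76%, and in Lysfree vs Differentiated 0 and 2 (median 0.07), beside 8.14% and 10.5%. Without Lysfree 1, the lower DEGs in Lysfree vs Undifferentiated numbered 1. The cyclase genes Adcy5 and Adcy4 were those with the largest rises in Differentiated, from 0.0672 ± 0.0334 to 0.574 ± 0.157 and from 0.138 ± 0.0296 to 0.832 ± 0.0516 FPKM. Both fell from Differentiated to Lysfree, with log2 fold changes of −2.20 ± 0.30 (edgeR adjusted p = 3.4e-06) and −1.34 ± 0.26 (adjusted p = 0.00026). The G protein genes Gnal and Gnaz fell in Differentiated vs Undifferentiated (−1.29 ± 0.25 and −1.22 ± 0.34).

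Gs-coupled receptor genes had DEGs in both directions in each comparison. Of 22 tested among 33 genes, 8 were higher and 3 lower in Differentiated vs Undifferentiated (median 0.93), beside 10.4% and 11.4% of all genes. Against Undifferentiated, in Lysfree 2 of 21 were higher and 5 lower (median −1.08), beside 5.52% and 8.76%. Only 7 of the tested receptors averaged 1 CPM or more, so these medians depend on genes with few counts. For the 7, the medians were 1.08 in Differentiated and −0.21 in Lysfree against Undifferentiated. In Lysfree vs Differentiated 3 of 20 were higher and 8 lower (median −1.58), beside 8.14% and 10.5%. Without Lysfree 1 the lower DEGs numbered 4 against Undifferentiated, and the higher DEGs 2 against Differentiated. The 7 receptors that averaged 1 CPM or more split into 3 higher and 4 lower in Lysfree vs Differentiated. With genes at or under 3 counts set at their bound, their median was −3.90, which is the lower bound of Adrb3 and no measured change. By fitted changes it was −4.22, the smallest of the 4 fitted falls. The melanocortin receptor Mc5r was at 7.12 ± 0.173 FPKM in Differentiated with 125, 154 and 137 counts, at least 46.8-fold above Lysfree, where it had 3, 2 and 1. The ACTH receptor Mc2r and the β3-adrenergic receptor Adrb3 had 0 counts in every Lysfree library, at least 24.7-fold and 14.9-fold below Differentiated. The adenosine receptor Adora2b rose in Lysfree vs Differentiated by 2.08 ± 0.30 (edgeR adjusted p = 7.2e-06). The prostacyclin receptor Ptgir rose by 1.31 ± 0.19 (adjusted p = 8.2e-06). The receptor gene Ptger4, at 7, 4 and 2 counts in Differentiated, rose by 1.61 ± 0.59 (adjusted p = 0.034). Without Lysfree 1, Ptger4 did not pass (1.23 ± 0.65, edgeR adjusted p = 0.12). The receptors that fell moved with the adipocyte markers, which summed to 6050 to 6340 FPKM in Differentiated and 61.2 to 68.2 in Lysfree, and the part of these markers was not tested.

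Downstream of cAMP, the next list holds genes of protein kinase A, its inhibitors and anchoring proteins (Akap genes), and Epac. Of 21 tested, 3 were higher and 4 lower as DEGs in Differentiated vs Undifferentiated (median 0.17), beside 10.4% and 11.4% of all genes. The numbers were 1 and 1 in Lysfree vs Undifferentiated (median −0.03), beside 5.52% and 8.76%. In Lysfree vs Differentiated they were 3 and 3 (median 0.17), beside 8.14% and 10.5%. The higher gene in Lysfree vs Undifferentiated was Akap1, and Akap6 was among those higher in Lysfree vs Differentiated. The catalytic subunit Prkaca was at 52.5 ± 2.61, 92.8 ± 2.36 and 32.8 ± 3.1 FPKM in Undifferentiated, Differentiated and Lysfree, and fell by 1.44 (SE 0.10, edgeR adjusted p = 6.9e-11) on the log2 scale in Lysfree vs Differentiated. The inhibitor Pkig fell by 1.45 (SE 0.12) in that comparison, and the inhibitor Pkia rose by 2.24 ± 0.50 (adjusted p = 0.0009). Pkia was low, at 8, 2 and 7 counts in Differentiated and 44, 21 and 22 in Lysfree libraries. Without Lysfree 1 its rise was 1.73 ± 0.50. The cAMP sensor Epac1 (Rapgef3) was lower in both treated groups than in Undifferentiated, at 0.829 ± 0.126 and 1.37 ± 0.212 against 6.48 ± 0.303 FPKM.

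Among the 14 genes of the CREB family, its coactivators and the other salt-inducible kinases, 1 was higher and 2 lower as DEGs in Differentiated vs Undifferentiated (median −0.06), beside 10.4% and 11.4% of all genes. The numbers were 0 and 2 in Lysfree vs Undifferentiated (median −0.01), beside 5.52% and 8.76%. In Lysfree vs Differentiated they were 2 and 2 (median 0.05), beside 8.14% and 10.5%. The 2 lower genes in Lysfree vs Undifferentiated were Creb3l1 (−1.10 ± 0.10) and Creb3l2 (−1.05 ± 0.11). Creb3l1 was also lower in Differentiated vs Undifferentiated (−2.35 ± 0.06). Sik2, the salt-inducible kinase typical of fat cells, was at 3.44 ± 0.294, 12.2 ± 0.435 and 4.02 ± 0.191 FPKM in the 3 groups. It was highest in Differentiated, where Sik1 was not above Undifferentiated. It fell by 1.54 (SE 0.10, edgeR adjusted p = 2.6e-11) on the log2 scale in Lysfree vs Differentiated, whereas Sik1 rose. The coactivator Crtc3 was at 4.3 ± 0.109, 1.83 ± 0.0872 and 4.11 ± 0.0807 FPKM, with a log2 fold change of −1.26 ± 0.09 in Differentiated vs Undifferentiated and of 1.24 ± 0.11 in Lysfree vs Differentiated.

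**Figure D5:**
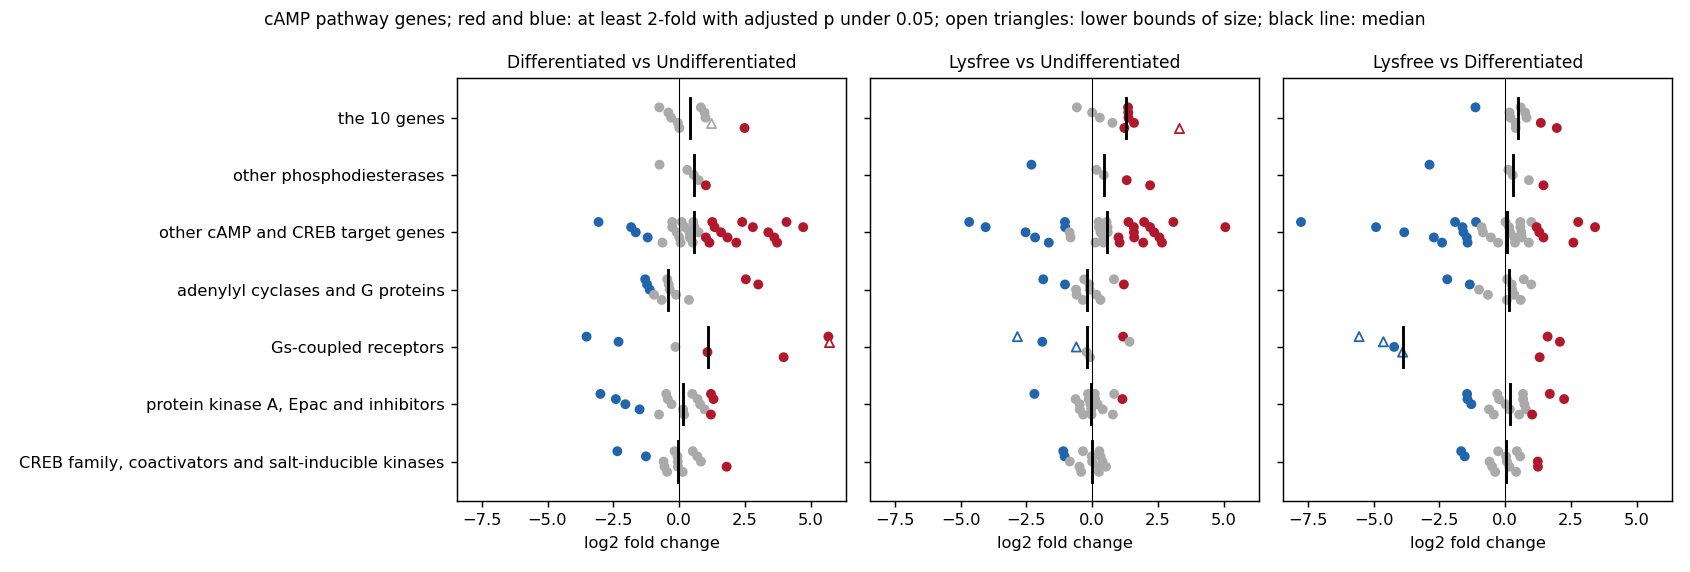
Log2 fold changes (x axis) in the 3 comparisons for the 10 genes and for the genes of 6 cAMP pathway lists with a mean of at least 1 CPM, with DEGs in red (higher) or blue (lower), open triangles for lower bounds of genes at or under 3 counts in a group, and black lines at the median. In Lysfree vs Differentiated, with all libraries, the 7 receptors split into 3 higher and 4 lower. This puts their median line at −3.90, the lower bound of Adrb3.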

How the data were processed

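RNA of 9 libraries of 3T3-L1 cells, 3 per group, was poly A enriched and sequenced by the study. Per the labels, the authors mapped reads to mm10 with HISAT2 2.0.5 and counted them with featureCounts 1.5.0-p3. The annotation and the strand setting are not given in the sources used here. The deposited tables hold raw counts per gene and FPKM, which the authors scaled to gene length and library total. Coordinates are those of the tables.

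Each pair of groups was compared on the counts in R 4.3.3 by the quasi-likelihood test of edgeR 4.0.16 with TMM scaling, leaving out genes without a read in the 6 libraries, with Benjamini-Hochberg adjustment over all genes. The standard error is the size of the log2 fold change over the square root of F. FPKM gave the levels, ranges and ratios. The tests were checked on simulated counts. A gene at 3 counts or fewer in every library of a group was taken as at the floor. Promoter windows are from RefSeq (GRCm38.p6), and exons from GENCODE vM21. The 10 genes, the lists and the rules were chosen with earlier results of these data known. Besides the 10 genes, those named are phosphodiesterases with a mean of at least 1 CPM and, of each other list, up to 2 rises and 2 falls per comparison, the largest among DEGs at that level, of which the text gives a selection. Alternatives were DESeq2 1.42.0, other scalings and filters, a single fit of all libraries, a replicate block, no fold threshold, limma 3.58.1 on log2(FPKM + 1) and log2(FPKM + 0.1), and leaving out each library. Leaving out Lysfree 1 for the lists was added after the data had been seen.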

Additional observations from a re-analysis of the deposited data

How the results depend on the processing

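Depth limits the low genes most, above all Nr4a3 with 1 to 9 counts per library outside Lysfree, and 3 libraries per group limit every standard error. Of the results for the 10 genes under the alternatives, 422 kept their direction and their side of the DEG thresholds, 8 lost the call, 8 gained it and 8 changed sign. The sign changes concern changes near 0. For Pde4b in Differentiated vs Undifferentiated they were −0.026 with library sizes alone, −0.00081 with at least 10 counts in every library, −0.0047 without Undifferentiated 3 and −0.021 without Differentiated 2, with a range of −0.021 to 0.034 over the libraries left out. For Nr4a2 in Lysfree vs Undifferentiated they were 0.027 with library sizes alone, 0.00079 without Undifferentiated 1, 0.08 without Undifferentiated 2 and 0.1 without Lysfree 1, with a range of −0.11 to 0.1 over the libraries left out. The adjusted p was at least 0.76 in each. By the adjusted p alone, Pde4d and Nr4a3 in Lysfree vs Differentiated and Pde7a against Undifferentiated crossed 0.05 in some settings, Nr4a3 with limma on log2(FPKM + 1) (adjusted p = 0.06). The size of the adjusted p depended on the fit far more than the fold change did. For Pde3b in Differentiated vs Undifferentiated, edgeR gave 3e-105 as reported, 2.8e-17 with all 9 libraries in a fit and 3.1e-10 with its own expression filter. With limma on log2(FPKM + 1) it was 2.9e-05. The log2 fold change was 2.48, 2.49, 2.48 and 1.46 in the same order. The number of DEGs among the 10 in Differentiated vs Undifferentiated was 1 as reported, 2 with DESeq2, with the median of ratios, with all 9 libraries in a fit and with the replicate block, 6 with no fold threshold, and 1 to 3 with a library left out, because Crem and Pde4d lie next to a 2-fold change. In Lysfree vs Undifferentiated it was 6 as reported, 2 with limma on log2(FPKM + 1) and 5 to 6 with a library left out. In Lysfree vs Differentiated it was 3 as reported, 0 with limma on log2(FPKM + 1), 7 with no fold threshold and 3 with any library left out. That pseudocount shrinks changes of genes near 1 FPKM. In the same order of comparisons, DEGs over all genes numbered 5329, 3426 and 4507. They were 3488, 2244 and 2891 with at least 10 counts in every library (fewer genes tested), 2726, 1474 and 2198 with limma on log2(FPKM + 1), 11260, 8428 and 9280 with no fold threshold, and 5037 to 5161, 3093 to 3448 and 4120 to 4485 with a library left out. The replicate numbers do not pair the libraries: deviations of same-numbered libraries correlated at −0.08 to 0.12, and not every library correlated best with its own number. With a replicate block the DEGs numbered 4837, 3179 and 4173, and 2, 6 and 3 of the 10 genes were DEGs.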
